A study of Mus musculus with 6 samples.

Results

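The genes for glutamate and GABA receptors were examined in chromatin that was open to transposase in mouse neural stem/progenitor cells (NSPCs). Accessible regions were assigned to 33 receptor genes, 23 for glutamate and 10 for GABA, where the strongest summit of the region lay nearer to a transcription start site (TSS) of one of them than to that of any other protein-coding gene, and at most 100 kb away. This chose 110 of 82885 regions in parent NSPCs and 137 of 107480 regions in NSPCs that lack the SRR2–18 enhancer cluster of *Sox2* (ΔSRR2–18). The genes were picked with the peak lists in view and are not the complete receptor families. Regions were selected on the position of their strongest summit, that is the summit with the highest fold enrichment, so the number of regions per gene is given as a description.

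ATAC-seq, in which a transposase inserts adapters into accessible DNA, had been performed on 3 cultures of the parent line (clone 5B, Sox2-mCherry on the 129 allele, no enhancer deletion) and 3 cultures of a homozygous SRR2–18 deletion line (clone 47D, with the same mCherry tag). Both lines were 129S1/Cast F1 hybrid embryonic stem cells that had been differentiated into NSPCs and grown with EGF and bFGF. Each genotype was 1 clone, so effects of the clone and of the deletion cannot be told apart. The peaks of each genotype form 1 list pooled over its cultures. Spread between replicates is therefore not known for any value below, and differences between the genotypes are descriptions without a test.

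Ionotropic glutamate receptors are cation channels opened by glutamate and fall into AMPA, kainate, NMDA and delta classes, whereas metabotropic glutamate receptors act through G proteins. GABA-A receptors are chloride channels built from several kinds of subunit, and GABA-B receptors are G protein coupled pairs of *Gabbr1* and *Gabbr2* products. These proteins carry fast and modulatory signals at synapses of mature neurons. Neural progenitors also express some of them, and GABA and glutamate are known to influence progenitor proliferation before synapses form.

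The sequences around selected summits show what DNA was open at these genes. The following 7 windows were chosen because they hold the region with the highest fold enrichment among those called in the parent only (in *Grik1*) and among those called in ΔSRR2–18 only (also in *Grik1*), further regions from the strongest 5 of each kind that held a searched motif, and a *Grik4* region called in both genotypes that was much taller in ΔSRR2–18. Each is 201 bp of the plus strand of mm10 (GRCm38) centred on the strongest summit, with matches to the AP-1 motif (TGACTCA), which FOS and JUN proteins bind, or the SOX motif (ACAATGG or ACAAAGG) on either strand in capitals.
Grik1 parent-only, chr16:87988903-87989103: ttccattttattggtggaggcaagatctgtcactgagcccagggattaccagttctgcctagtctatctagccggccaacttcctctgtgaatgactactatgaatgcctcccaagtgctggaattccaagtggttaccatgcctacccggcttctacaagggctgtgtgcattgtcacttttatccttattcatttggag
Grm3 parent-only, chr5:9801770-9801970: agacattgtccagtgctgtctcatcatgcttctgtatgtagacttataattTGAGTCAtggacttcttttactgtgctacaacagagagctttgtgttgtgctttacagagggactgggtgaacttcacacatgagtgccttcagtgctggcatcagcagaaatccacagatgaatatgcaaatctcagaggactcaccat
Grik1 deletion-only, chr16:88224866-88225066: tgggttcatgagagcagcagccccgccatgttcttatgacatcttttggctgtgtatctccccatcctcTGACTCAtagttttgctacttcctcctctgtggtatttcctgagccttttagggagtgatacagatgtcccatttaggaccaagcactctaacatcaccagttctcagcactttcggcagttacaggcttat
Grm8 deletion-only, chr6:28091430-28091630: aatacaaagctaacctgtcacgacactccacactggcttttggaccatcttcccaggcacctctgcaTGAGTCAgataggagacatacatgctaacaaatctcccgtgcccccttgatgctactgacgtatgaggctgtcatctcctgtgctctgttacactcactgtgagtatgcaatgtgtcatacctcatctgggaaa
Gabrg1 deletion-only, chr5:70895040-70895240: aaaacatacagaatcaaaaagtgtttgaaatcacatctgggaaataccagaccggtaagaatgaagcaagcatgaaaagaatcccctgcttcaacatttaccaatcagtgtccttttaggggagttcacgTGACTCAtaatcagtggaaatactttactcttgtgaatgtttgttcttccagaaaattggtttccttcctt
Grik2 deletion-only, chr10:49716902-49717102: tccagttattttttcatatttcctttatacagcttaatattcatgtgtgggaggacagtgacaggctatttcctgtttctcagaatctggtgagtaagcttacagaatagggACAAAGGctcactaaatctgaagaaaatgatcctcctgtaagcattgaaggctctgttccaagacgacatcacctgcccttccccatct
Grik4 shared, chr9:42871853-42872053: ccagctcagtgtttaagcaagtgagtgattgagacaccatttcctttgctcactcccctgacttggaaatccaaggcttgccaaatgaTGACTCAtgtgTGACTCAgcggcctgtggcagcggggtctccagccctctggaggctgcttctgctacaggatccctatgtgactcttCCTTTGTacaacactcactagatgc
The *Grm3* window held an AP-1 match on a parent-only region, and the *Grik1*, *Grm8* and *Gabrg1* deletion-only windows each held one as well. The *Grik4* window held 2 AP-1 matches and a SOX match. The leading parent-only window in *Grik1* held neither motif, although it contained a match to the posterior HOX motif (TTTATNG).

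A second set shows matches to the motif of REST, a repressor that keeps neuronal genes silent outside neurons. The motif was searched as CAGCACC and GGACAG separated by 2 bases, with up to 2 mismatches in the 13 fixed letters. The 30-base windows below, with the matched stretch in capitals, are written in the direction of the motif, and the strand that was read is given.
Gria2 first match, chr3:80802876-80802905, plus strand: cagcgccCCGCACCCCGCACAGccctggca
Gria2 second match, chr3:80802984-80803013, plus strand: tcgatttTAGCACCGCGGACAGcgctttgg
Grin1, chr2:25319011-25319040, minus strand: atacgcttCAGCACCTCGGACAGcacccgc
Grin3b, chr10:79970923-79970952, minus strand: cctcgcgcCAGCGCCAGGGCCAGgctgagc
Grm4, chr17:27466824-27466853, minus strand: ccaggcttCAGCACCTCGGAGAGcggcacc
Gabbr2, chr4:46993023-46993052, plus strand: aggacggCAGTACCTTGGACAGctccagag
Grik4, chr9:42819421-42819450, plus strand: gcccctcCAGGACCTTGGACAGtgctcaca
The match at *Grin1* had 0 mismatches, and those at *Grm4*, *Gabbr2*, *Grik4* and the second position at *Gria2* had 1. The first match at *Gria2* and the match at *Grin3b* had 2 mismatches each. All but the *Grik4* match lay in regions that were open in both genotypes.

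The shares of receptor regions that were private to 1 genotype were near those of the whole lists. Of the 110 parent regions, 63 overlapped no region of the ΔSRR2–18 list (parent-only; 57.3%, 95% Wilson interval 47.9 to 66.1%), and over all parent regions this share was 52.3%. Of the 137 ΔSRR2–18 regions, 90 overlapped no parent region (deletion-only; 65.7%, 57.4 to 73.1%), against 63.1% over all regions. The remaining 47 regions of each list were shared by at least 1 bp and formed 48 overlapping pairs. These intervals cover counting error only, and regions of the same gene are not independent of each other.

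The direction differed from gene to gene. Deletion-only regions outnumbered parent-only regions at 17 genes, the reverse held at 7 genes, and the numbers were equal at 9. The whole lists also held more deletion-only regions (67794) than parent-only regions (43385). The same count over all genes is not given here, so the split is a description only. Regions private to the parent and none private to ΔSRR2–18 were found at *Grik5*, *Grin3a*, *Grin3b*, *Grm3* and *Grm4*. The opposite arrangement was found at 10 genes, namely *Gria2*, *Grik2*, *Grik3*, *Grin2a*, *Gabra5*, *Gabra6*, *Gabrb1*, *Gabrb2*, *Gabrg3* and *Gabbr1*. At *Grin1*, *Grin2d*, *Grm2*, *Grm6* and *Gabra4*, every assigned region was shared. These groups depended on the assignment. With regions assigned by lying in the gene body at any distance, *Grik5*, *Grin3a* and *Grin2d* had 1, 2 and 2 deletion-only regions. Likewise, *Gria2*, *Grik3*, *Grin2a* and *Gabrb1* then had 1, 5, 4 and 1 parent-only regions. In all, 27 of the 33 genes had a parent region and 32 had a ΔSRR2–18 region, beside 16465 and 17143 of the 21938 protein-coding genes.

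**Figure D1:**
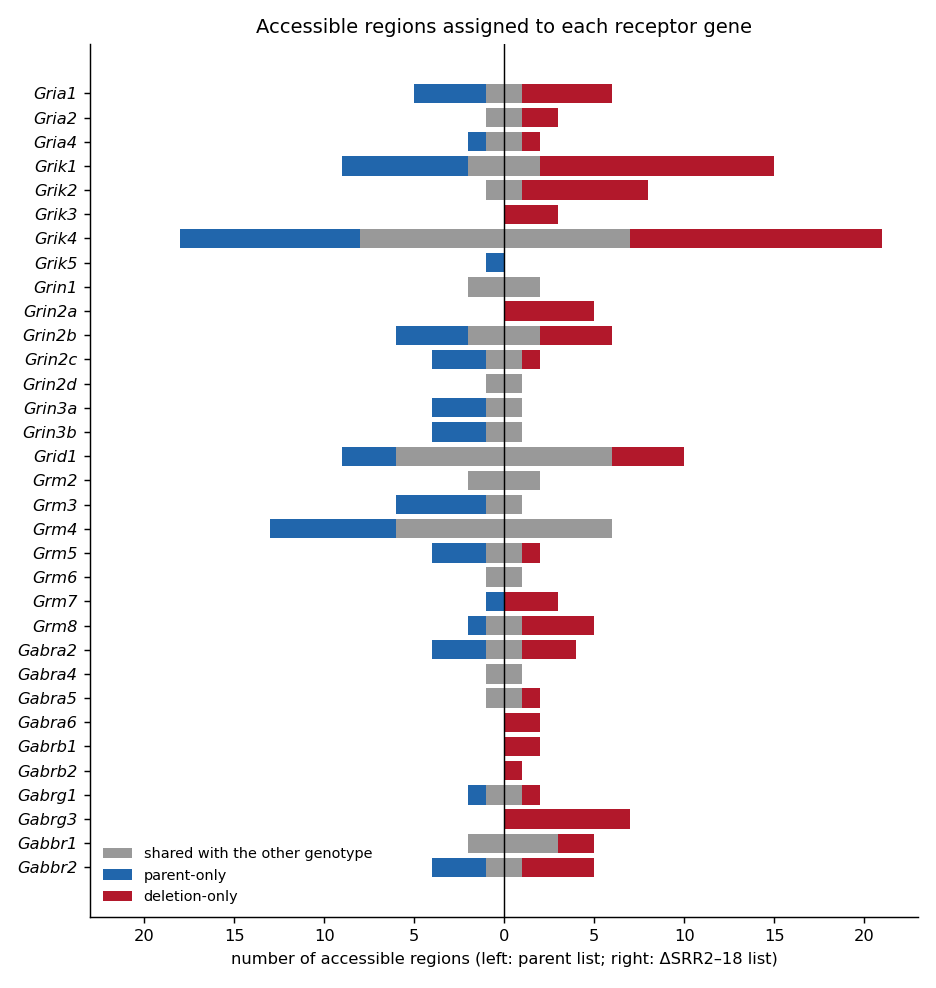
Number of accessible regions assigned to each of the 33 receptor genes. Bars to the left count regions of the parent list and bars to the right regions of the ΔSRR2–18 list, with shared regions in gray, parent-only regions in blue and deletion-only regions in red. *Grm4* and *Grm3* carry 13 and 6 parent regions against 6 and 1 in ΔSRR2–18, while *Gabrg3* and *Grin2a* carry 7 and 5 regions in ΔSRR2–18 and none in the parent within 100 kb of a TSS.

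Fold enrichment here is the authors' ratio of the pileup at a summit to its local background. Its median over the receptor regions was 10.0 in the parent and 10.7 in ΔSRR2–18, beside 9.81 and 10.4 over all regions of each list. A second measure, the height, divides the reads at the tallest summit of a region by the lowest background of its list, which was 38.8 reads in the parent and 19.7 reads in ΔSRR2–18. It therefore allows for a difference in depth, which these backgrounds put at 1.98 times greater in the parent list. Median heights were 14.8 and 13.8 at receptor genes, lower than the 17.6 and 18.0 over all regions. Member regions reached from 142 to 4398 summit reads in the parent and from 92 to 2016 in ΔSRR2–18.

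Receptor regions lay mostly inside genes. Gene bodies held 68 parent regions (61.8%) and 81 ΔSRR2–18 regions (59.1%), whereas they held 48.8% and 47.2% of all regions. Promoters, defined as within 1 kb of any annotated TSS, held 22.7% (15.9 to 31.4%) and 22.6% (16.4 to 30.3%) of receptor regions, beside 20% and 16.6% of all regions. Receptor regions were assigned by distance to a TSS with a limit of 100 kb, and all regions had no such limit. These shares are therefore descriptions. The promoter share of parent receptor regions was 35.3% at 50 kb and 8.86% when regions were assigned by gene body. Of the 25 parent promoter regions, 4 were parent-only (16%, beside 15.2% over all promoter regions), and of the 31 ΔSRR2–18 promoter regions, 9 were deletion-only (29%, beside 21%). Away from promoters, 59 of 85 parent regions (69.4%) and 81 of 106 ΔSRR2–18 regions (76.4%) were private to their genotype, and the same shares over all regions were 61.6% and 71.5%.

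Among the regions assigned to each gene, 20 genes had one within 1 kb of their own TSS in both genotypes. *Grik5*, *Grm5* and *Gabbr2* had such a region in the parent alone. *Gria1*, *Grik3*, *Grin2a*, *Grm7* and *Gabrg3* had one in ΔSRR2–18 alone. Of these regions, those of *Grm5* and *Grik3* overlapped a region in the second list (the optimal list) of the other genotype. *Grin2c*, *Grm8*, *Gabra6*, *Gabrb1* and *Gabrb2* had no such assigned region in either list. A matching count over all protein-coding genes is not given, so this split is a description only. The annotated start of *Gabrb1*, at chr5:71658113, nevertheless lay inside a shared promoter region. That region, chr5:71657511-71658524 in the parent, was assigned to *Gabra4*.

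**Figure D2:**
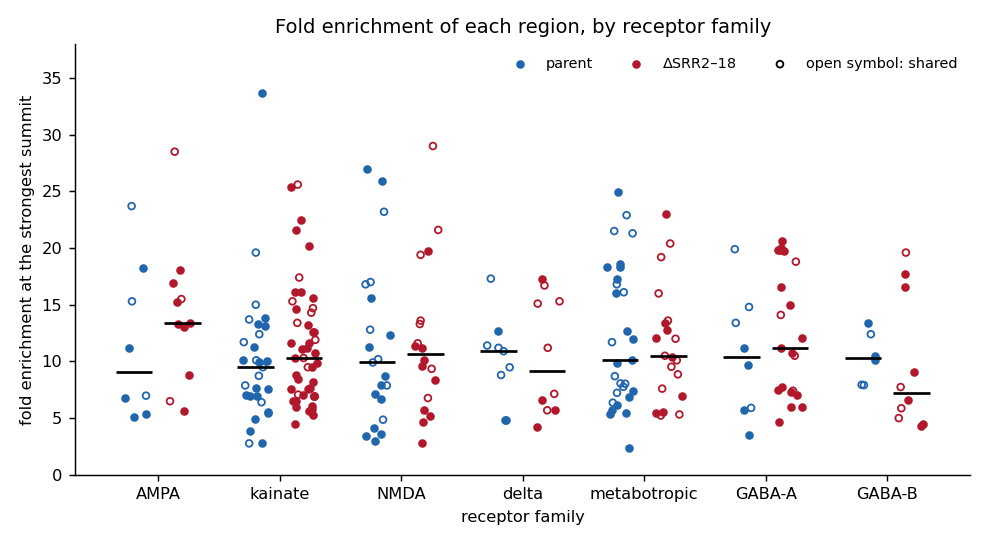
Fold enrichment at the strongest summit (vertical axis) of every region of the receptor genes, by receptor family and genotype. Filled symbols are regions private to 1 genotype, open symbols are shared regions and black lines are medians, which lie between 9.07 and 10.9 in the parent and between 7.19 and 13.4 in ΔSRR2–18. The highest value, 33.7, is a parent-only *Grik1* region.

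AMPA receptor genes, which encode the subunits of the main fast excitatory channel, carried 8 parent regions (5 parent-only) and 11 ΔSRR2–18 regions (8 deletion-only). These shares, 62.5% and 72.7%, stood beside 52.3% and 63.1% over all regions. At *Gria2*, whose product makes the channel impermeable to calcium, the promoter region with the REST matches was shared and had fold enrichments of 23.7 in the parent and 28.5 in ΔSRR2–18, the highest of the family in both. Its height was nevertheless 97.6 in the parent and 46.8 in ΔSRR2–18, so the 2 measures ordered the genotypes differently. *Gria2* also had 2 deletion-only intronic regions, with fold enrichments of 16.9 and 13.

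Most regions of *Gria1* were private to 1 genotype. Its 4 parent-only regions were intronic, with fold enrichments from 5.12 to 18.2. Its 5 deletion-only regions included 1 that lay 988 bp upstream of the TSS and 4 in introns, with fold enrichments from 8.81 to 18.1. The strongest of these, 78431 bp downstream of the TSS, had a height of 62.2 and an AP-1 match. *Gria4* had a shared promoter region (height 55.4 in the parent and 31.0 in ΔSRR2–18) and 1 weak intronic region private to each genotype.

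Kainate receptor genes held more regions than any other family in ΔSRR2–18. They encode channels that act both at synapses and on neurotransmitter release. The parent list had 29 regions, 18 of them parent-only (62.1%, 44 to 77.3%, beside 52.3% over all regions), and the ΔSRR2–18 list had 47 regions, 37 of them deletion-only (78.7%, 65.1 to 88.0%, beside 63.1%).

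*Grik1*, with 394 kb of gene body, carried the leading private region of each genotype. The parent-only region at chr16:87988474-87989208, in an intron 67173 bp from the nearest *Grik1* TSS, had a fold enrichment of 33.7, which ranked it in the top 0.0265% of the parent list. The deletion-only region at chr16:88224726-88225697, also intronic, had a fold enrichment of 25.4 and stood in the top 2.66% of its list. The height was 38.3 for the parent-only region and 44.9 for the deletion-only region. A further deletion-only region of *Grik1*, 94101 bp upstream in an intron of the noncoding gene *4930420G21Rik*, had a fold enrichment of 21.6. In total, 7 parent-only and 13 deletion-only regions surrounded a shared promoter region of similar fold enrichment (11.7 and 10.3).

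*Grik2* had 1 region in the parent, at its promoter, and 8 in ΔSRR2–18. The promoter region was shared, with fold enrichments of 19.6 and 17.4. The 7 deletion-only regions lay in the gene, from 173 to 82863 bp from the nearest TSS, with fold enrichments from 6.1 to 22.5. The strongest is the window printed above with a SOX match. *Grik3* lacked a parent region within 100 kb of a TSS and had 3 deletion-only regions, among them a 2489-bp region over its TSS with a height of 13.6. That promoter overlapped a region of the parent optimal list, the second list deposited for each genotype. When regions were instead assigned by lying in the gene body at any distance, *Grik3* had 5 parent-only and 3 deletion-only regions.

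*Grik4* was the richest gene in both lists, with 18 parent regions (10 parent-only) and 21 ΔSRR2–18 regions (14 deletion-only). The excess of 4 deletion-only regions fell to 0 at a limit of 50 kb and with the ΔSRR2–18 list shortened to the parent number of regions, and assignment by gene body turned it, to 15 parent-only and 13 deletion-only regions. Its promoter region was shared, with heights of 69.0 and 81.3. A shared intronic region, whose sequence is given above, had a height of 14.7 in the parent and 68.6 in ΔSRR2–18. Another shared region, inside the neighbouring gene *Arhgef12*, had heights of 6.54 and 76.4, a ratio of 11.7. Not all shared *Grik4* regions were taller in ΔSRR2–18. An intronic region had heights of 95.8 in the parent and 42.1 in ΔSRR2–18, and a further one had 26 and 9.92. The remaining shared pairs of the gene were higher in ΔSRR2–18. Of the deletion-only regions, 3 with an AP-1 match were also tall, namely an intronic region with a height of 81.8 and adjacent regions in *Arhgef12* with heights of 36.3 and 74.7. The region assigned to *Grik5* was in the parent list, 941 bp from its TSS in an intron of *Zfp574*, with a low fold enrichment of 3.87 but a height of 71.2.

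NMDA receptor genes encode calcium-permeable channels that need glutamate together with a co-agonist. They had 21 parent regions (13 parent-only, 61.9%) and 18 ΔSRR2–18 regions (10 deletion-only, 55.6%). Over all regions these shares were 52.3% and 63.1%. By gene body the order of the NMDA counts turned, to 22 (12) and 30 (20). *Grin1*, the obligatory subunit, was open at its promoter and at an intronic region in both genotypes. At the promoter, heights were 65.6 in the parent and 30.4 in ΔSRR2–18, and at the intronic region 17.2 and 42.4.

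The 2 widely expressed partner subunits differed. *Grin2a* lacked a parent region within 100 kb of a TSS, although 4 parent-only regions lay deeper in the gene with fold enrichments up to 18.7. In ΔSRR2–18 it had 5 regions within that limit, of which the strongest, 7312 bp downstream of the TSS, had 1986 summit reads, a height of 101 and a fold enrichment of 19.7. *Grin2b* had 6 regions in each list, with 4 private to each. Its parent-only region at chr6:136165324-136166042, in an intron 7526 bp from the TSS, had a fold enrichment of 27 and a height of 67.8. A shared intronic region 42511 bp into the gene at its ΔSRR2–18 summit had a height of 10.1 in the parent and 103 in ΔSRR2–18. With a fold enrichment of 29.0 it was the strongest receptor region of the ΔSRR2–18 list.

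The 2 *Grin3* genes, whose subunits lower calcium flow through the channel, had private regions in the parent and none in ΔSRR2–18. *Grin3a* had 3 parent-only intergenic regions upstream, the strongest 68275 bp away with a fold enrichment of 25.9. Its shared promoter region had a height of 82.0 in the parent and 17.4 in ΔSRR2–18. By gene body, however, *Grin3a* had 1 parent-only and 2 deletion-only regions. *Grin3b* is a short gene whose regions were weak, with fold enrichments from 2.98 to 4.86 in the parent, and 2 of its 3 parent-only regions lay in *Wdr18*. At *Grin2c*, the 3 parent-only regions all lay in *Tmem104* and reached a height of 105, and ΔSRR2–18 had 1 deletion-only region over a coding exon of *Grin2c*. *Grin2d* had 1 assigned region, shared, near its TSS with heights of 53.5 and 48.4.

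*Grid1* encodes a delta receptor, which organizes synapses rather than acting as a usual glutamate-gated channel. It had 9 parent regions (3 parent-only, 33.3%, beside 52.3% over all regions) and 10 ΔSRR2–18 regions (4 deletion-only, 40%, beside 63.1%), with 6 shared. By gene body it had 15 parent regions (14 parent-only) and 4 ΔSRR2–18 regions (3 deletion-only). The height of the shared promoter region was 62.6 in the parent and 20.4 in ΔSRR2–18. In contrast, 2 shared regions with AP-1 matches at the ΔSRR2–18 summit had heights of 22.3 and 26.9 in the parent and 57.9 and 58.6 in ΔSRR2–18. The top fold enrichment was 17.3 in each list, at different regions.

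Metabotropic receptor genes had more regions in the parent than in ΔSRR2–18, with 29 regions (17 parent-only, 58.6%) against 20 regions (8 deletion-only, 40%, 21.9 to 61.3%). Over all regions these shares were 52.3% and 63.1%. The order depended on the limit of 100 kb. At 50 kb both lists had 16 regions with 5 private, and by gene body there were 41 parent regions (30 parent-only) and 55 ΔSRR2–18 regions (43 deletion-only), of which *Grm8* gave 2 and 23 and *Grm7* 5 and 15. Within 100 kb, the parent list had more regions than ΔSRR2–18 at *Grm4* and *Grm3*, which inhibit adenylyl cyclase, and at *Grm5*. *Grm4* had 13 parent regions, 7 of them parent-only, and 6 ΔSRR2–18 regions, all shared. Its excess of parent-only regions was 1 at 50 kb and 0 at 10 kb. Of these 7, all but 1 lay in the distal part of the gene or just beyond it, between 54387 and 96184 bp from the nearest *Grm4* TSS, with heights from 7.62 to 76.6. The strongest by fold enrichment, at chr17:27422374-27423534, reached 18.6. *Grm3* had 5 parent-only regions, 3 upstream and 2 in introns, and 0 of them remained at 50 kb or when TSSs of every biotype were used. The strongest, at chr5:9801425-9802402, lay 76700 bp upstream with a fold enrichment of 24.9 and a height of 63.8. The *Grm3* promoter region was shared, with a fold enrichment of 16.1 in the parent and 16 in ΔSRR2–18, but heights of 67.1 and 28.0.

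*Grm5*, which couples to phospholipase C and is active in progenitors and astrocytes, had a parent-only region at its TSS with 1617 summit reads, a fold enrichment of 16 and a height of 41.6. That region overlapped a region of the ΔSRR2–18 optimal list. *Grm7* had a weak deletion-only region at its TSS, with 114 summit reads and a height of 5.8. *Grm8* had 4 deletion-only regions, the strongest intronic with an AP-1 match and a fold enrichment of 23. Within 10 kb of a TSS, *Grm8* had only a shared region and a parent-only region. At *Grm2*, the promoter region was shared with heights of 47.6 and 40.4, while a shared region over the UTR at the other end of the gene stood in the top 4.06% of the parent list by fold enrichment and in the top 49.9% of the ΔSRR2–18 list. *Grm6* had 1 shared region near its TSS.

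**Figure D3:**
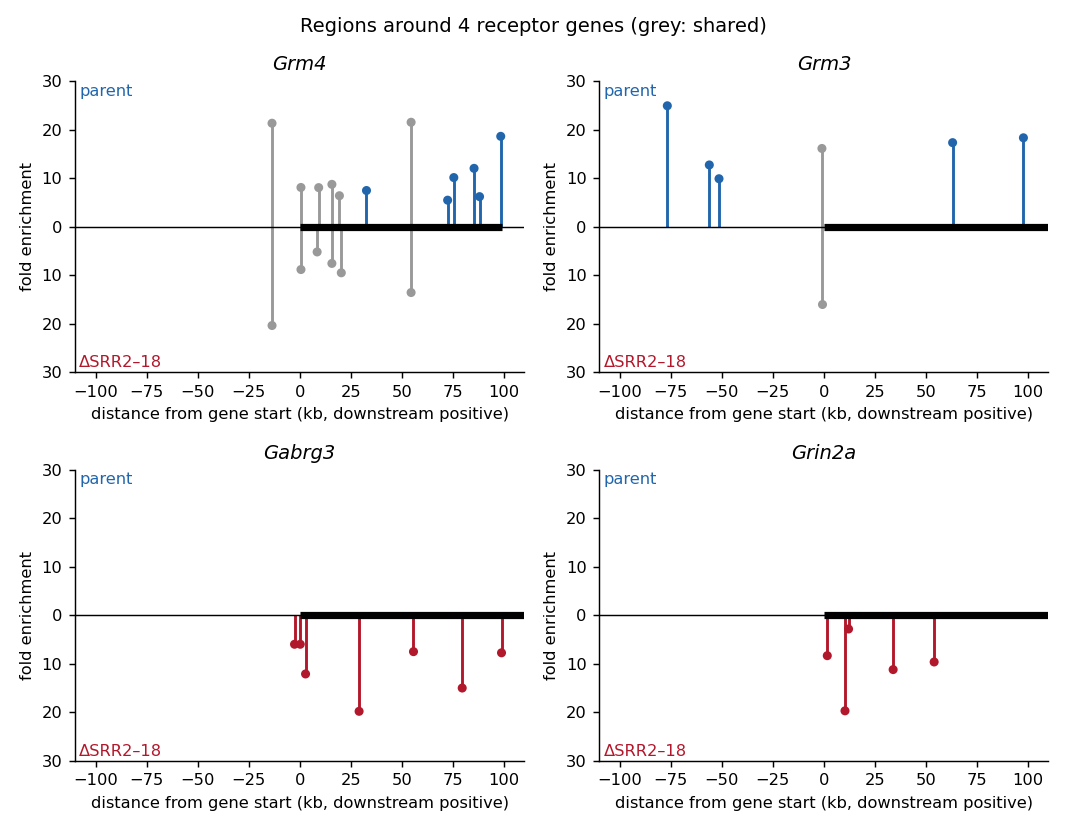
Accessible regions of *Grm4*, *Grm3*, *Gabrg3* and *Grin2a* by the distance of their strongest summit from the annotated gene start (horizontal axis, kb) and their fold enrichment (vertical axis, parent upward and ΔSRR2–18 downward). Gray marks shared regions, and the thick line is the gene body, drawn to 110 kb at most. The private regions assigned to the genes were on the parent side at *Grm4* (7) and *Grm3* (5) and on the ΔSRR2–18 side at *Gabrg3* (7) and *Grin2a* (5). A region assigned through another TSS and more than 110 kb from the gene start falls outside the panel. At 50 kb, the excess on the parent side was 1 at *Grm4* and 0 at *Grm3*.

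GABA-A receptor genes had 8 parent regions, of which 4 were parent-only (50%, beside 52.3% over all regions), and 21 ΔSRR2–18 regions, of which 17 were deletion-only (81%, 60 to 92.3%). The deletion-only share over all regions, 63.1%, lies inside this interval. *Gabrg3*, a gamma subunit, accounted for 7 of the 17, and the parent list had 0 regions within 100 kb of its TSSs or in its gene body. These included a region over its TSS (157 summit reads, height 7.99) and 5 intronic regions, the strongest with fold enrichments of 19.8 and 15. *Gabrb1* had 2 intronic deletion-only regions. *Gabra6* and *Gabrb2*, neighbours on chromosome 11, had 3 deletion-only regions between them, all intergenic, with fold enrichments of 20.0, 19.7 and 19.8. All 3 held an AP-1 match, and they lay within the interval chr11:42360146-42373646.

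*Gabrg1* held the largest relative difference among shared regions. Upstream of its TSS, a shared region had 4398 summit reads in the parent and 152 in ΔSRR2–18. These correspond to heights of 113 and 7.73, a ratio of 0.0683. Next to it, a parent-only region with its summit 263 bp downstream of the TSS had 2885 summit reads, a height of 74.3 and a SOX match 89 bp from its summit. The only deletion-only region of *Gabrg1* lay 52523 bp upstream, had a fold enrichment of 20.6 and an AP-1 match, and is printed above. The alpha subunit genes *Gabra2*, *Gabra4* and *Gabra5* were open at their promoters in both genotypes. Heights there were 19.5 and 20.0 at *Gabra2*, 20.3 and 23.8 at *Gabra4*, and 6.02 and 11.0 at *Gabra5*.

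GABA-B receptor genes had 6 parent regions (3 parent-only, 50%, beside 52.3% over all regions) and 10 ΔSRR2–18 regions (6 deletion-only, 60%, beside 63.1%). By gene body the counts were 16 (12) and 15 (11). *Gabbr1*, which binds GABA, had a shared promoter region with heights of 74.7 and 48.0 and a deletion-only region over a second, internal promoter (515 summit reads, height 26.2). A parent region in its introns overlapped 2 ΔSRR2–18 regions, and the stronger of these, with a fold enrichment of 19.6, had its summit 802 bp from the parent summit. *Gabbr2*, which couples the receptor to G proteins, had a parent-only region over its TSS with 1020 summit reads and a height of 26.3. The nearby shared region with a REST match had heights of 19.9 and 8.55.

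Over all 48 shared pairs, the median ratio of the ΔSRR2–18 height to the parent height was 1.02, with quartiles of 0.594 and 1.59, and 25 pairs (52.1%) were higher in ΔSRR2–18. Across all 40114 pairs of the lists the median was 0.847, and 38.9% were higher in ΔSRR2–18. At promoters, the median over 21 receptor pairs was 0.905, beside 0.731 over 14355 pairs. The receptor pairs ranged from 0.0683 at *Gabrg1* to 11.7 at *Grik4*. By rank in fold enrichment within each list, 21 of the 48 pairs (43.8%) stood higher in ΔSRR2–18, beside 42.8% of all pairs. The lists differ in length, so ranks are descriptions: the median change was -1.9 percentage points, and -9.44 with the ΔSRR2–18 list shortened to the parent number of regions. The 3 largest rises were those of a *Grik4* pair, from the top 98.0% to the top 29.8%, the *Grin2b* intronic pair, from 49.5% to 0.536%, and the *Gabbr1* intronic pair, from 61.1% to 13.1%. In the *Grik4* pair, a narrow parent region overlapped a wide ΔSRR2–18 region whose summit was 527 bp away. That wide region, with a height of 42.1, also overlapped a parent region with a height of 95.8. In the *Gabbr1* pair, the summits were 802 bp apart. The same *Gabbr1* parent region also overlapped a ΔSRR2–18 region whose summit was 19 bp away, and that pair fell from 61.1% to 89.5%. The 3 largest falls were those of the *Grm2* UTR pair, the *Gabrg1* promoter pair, from 27.5% to 70.7%, and a *Grid1* pair 50959 bp upstream, from 51.8% to 84.3%.

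**Figure D4:**
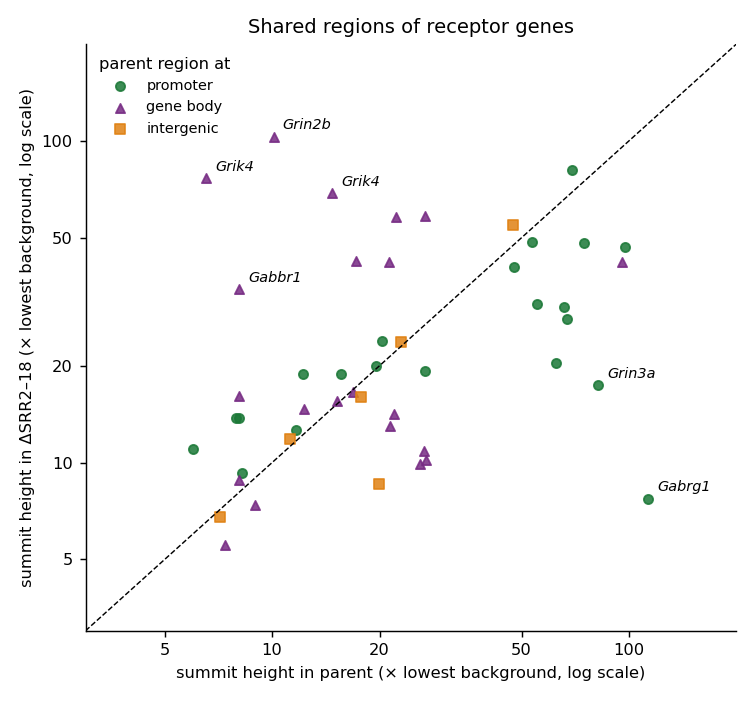
Height of the 48 shared pairs of regions in the parent (horizontal axis) and in ΔSRR2–18 (vertical axis), each as a multiple of the lowest background of its list, on log axes. Symbols give the place of the parent region, the dashed line marks equal heights, and pairs that differ more than 4-fold are named. *Gabrg1* and *Grin3a* promoters lie far below the line (ratios 0.0683 and 0.212), and *Grin2b*, *Grik4* and *Gabbr1* intragenic pairs lie far above it (up to 11.7). A second pair of the same *Gabbr1* parent region lies near the line (ratio 1.09).

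The AP-1 motif divided the private regions of the 2 genotypes, at receptor genes and in the whole lists alike. A match within 100 bp of the summit was found in 35 of 90 deletion-only regions (38.9%, 29.5 to 49.2%) and in 4 of 63 parent-only regions (6.35%, 2.5 to 15.2%). Over all regions the shares were 41.6% and 2.55%. In flanks 500 bp from the summit, 5.56% of the receptor deletion-only regions held a match. The 35 regions belonged to 16 of the 23 genes that had a deletion-only region. Their median fold enrichment was 10.1, beside 9.83 for deletion-only regions without a match.

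The SOX motif was found in 5 of 63 parent-only regions (7.94%, 3.44 to 17.3%), where the share over all parent-only regions was 15.1%, and in 6 of 90 deletion-only regions (6.67%), beside 6.55%. In flanks of the receptor parent-only regions it occurred in 14.3%. The E-box CAGCTG, bound by proneural factors, had a match in 28.6% of the parent-only receptor regions (28.8% over all) and in 18.9% of the deletion-only ones (15.4%). The POU motif (ATGCAAAT) occurred in 3 parent-only regions (4.76%, beside 3.12% over all) and 1 deletion-only region (1.11%, beside 1.23%). The posterior HOX motif occurred in 5 (7.94%, beside 5.86%) and 9 (10%, beside 11.2%). The NFI motif, TTGGC and GCCAA separated by 5 bases, was found in 0 of the 63 and 0 of the 90, and over all regions in 0.24% and 0.0428%.

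REST matches were found in 5 of 47 shared receptor regions in each list (10.6%, 4.63 to 22.6%), beside 2.29% and 2.17% of all shared regions. They were the regions of *Gria2*, *Grin1*, *Grin3b*, *Grm4* and *Gabbr2* printed above. In the 300-bp promoters of RefSeq, which run from 250 bp before to 50 bp after the gene start, 25 of the receptor genes were matched by symbol and 3 of them (12%) held a match. These were *Gria2*, *Grik2* and *Grin1*, and the share over 27025 promoters was 1.89%. Presence of these letters does not show that REST was bound.

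**Figure D5:**
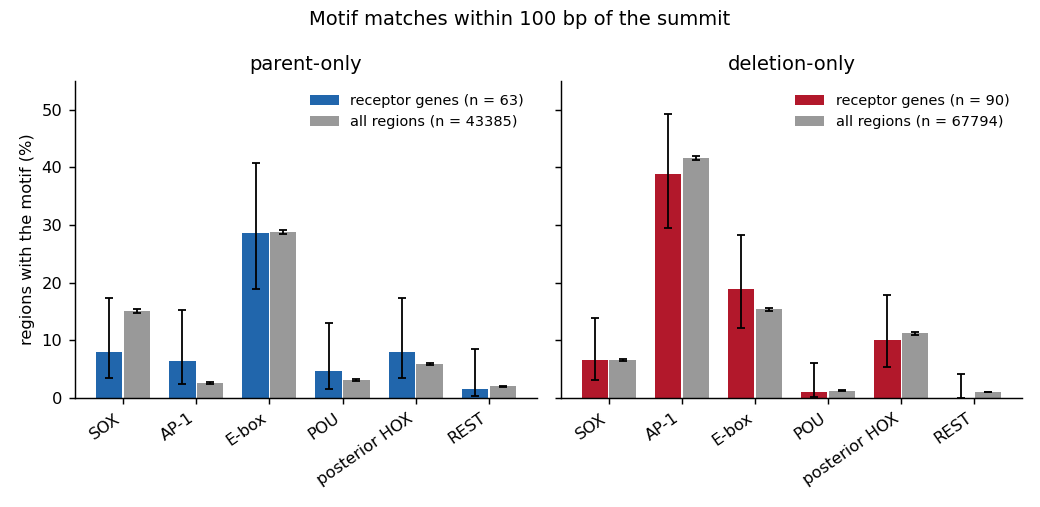
Share of private regions (vertical axis, %) with a motif match within 100 bp of the strongest summit, for receptor genes (colored) and all regions of the same class (gray), with 95% Wilson intervals. Parent-only regions are on the left and deletion-only regions on the right. AP-1 stands at 38.9% of receptor and 41.6% of all deletion-only regions, against 6.35% and 2.55% of parent-only regions.

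Other genes of the same synapses were counted for comparison. The 38 genes for transporters, synthesis enzymes, glycine receptors, scaffolds and auxiliary subunits had 208 parent regions, 116 of them parent-only (55.8%), and 199 ΔSRR2–18 regions, 108 of them deletion-only (54.3%, 47.3 to 61.0%). Over all regions these shares were 52.3% and 63.1%. The interval covers counting error only and gives no test of a difference from all regions. Regions of the same gene are not independent, and *Grip1* alone gave 25 of the 108. Parent regions were in excess at *Slc1a2*, an astrocyte glutamate transporter (15 against 7), and at *Cacng5* and *Cacng4*, AMPA receptor auxiliary subunits (9 against 0 and 11 against 2). ΔSRR2–18 regions were in excess at *Gad2*, which makes GABA (10 against 2), the vesicular glutamate transporter gene *Slc17a6* (6 against 1) and *Grip1*, an AMPA receptor scaffold (32 against 16).

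The cells were checked by the TSS regions of marker genes. All 7 NSPC markers examined were open in both genotypes. Of 6 neuronal markers, 4 were open in the parent and 5 in ΔSRR2–18, with *Rbfox3* the one that differed. Of 4 astrocyte markers 1 was open, and of 4 oligodendrocyte markers 2 were open, in each genotype. Fewer cells with an open site and less opening per cell cannot be told apart in these bulk lists, and the part of cell composition in the results was not tested.

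At the edge of the 100-kb limit, the outermost parent region included was one of *Gria1* at 99822 bp (fold enrichment 5.12) and the first one left out was one of *Grm3* at 101953 bp (6.36). In ΔSRR2–18 these were a *Gabrg3* region at 98560 bp (7.74) and a *Gabrg1* region at 100369 bp (7.31).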

How the data were processed

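ATAC-seq reads of 3 cultures per genotype, sequenced to 50 to 60 M reads per the labels, were processed by the authors with the ENCODE ATAC-seq pipeline on mm10. Peaks were called with MACS2 and combined by IDR. The values that the authors deposited with a peak are an IDR score, the fold enrichment of the summit over local background, and −log10 p and −log10 q values, all on pooled reads; depth per culture was not recovered. Of the 2 lists per genotype, the conservative one was used. deepTools is named in the submitters' processing notes. Reads of the *M. castaneus* allele can map less well to mm10.

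Distinct intervals took the values of their summit with the highest fold enrichment. Summit reads were solved from the fold enrichment and −log10 p with a Poisson model; they were whole within 0.05 for 99.9993% of parent and 100% of ΔSRR2–18 peaks, and are pileup heights. Genes and TSSs came from GENCODE M21 basic (21938 protein-coding genes). Motifs were exact matches except REST. Python 3.11.15, numpy 2.4.6 and pandas 2.3.3 were used. The read recovery, overlap classes, TSS assignment and motif scan were tested on simulated data, and the other steps were not. Wilson intervals cover counting error only.

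The receptor genes, the synapse list, the motifs and the tests were chosen with earlier results of these data known. Regions described are, by rule, the strongest per family and list, the 5 strongest private regions per genotype, those within 1 kb of a TSS of their gene, and the 3 shared pairs with the largest rise and fall in rank. Other regions named, and the *Gabra6*–*Gabrb2* interval, were chosen after their values were seen. A gene of the synapse list enters its totals and is otherwise not reported here. The alternatives were the optimal lists, a stricter IDR, 50% reciprocal overlap, absence judged also against the optimal list, equal or shorter lists, distances of 50 kb and 10 kb, TSSs of every biotype, gene-body assignment, a common depth, promoters widened to 2.5 kb, motifs within 50 bp of a summit or away from TSSs, and ranks by −log10 p or reads.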

Additional observations from a re-analysis of the deposited data

How the results depend on the processing

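No paired analysis was possible because each genotype has 1 pooled list, and for the same reason no culture could be left out. Of the main values recomputed, 115 moved by less than their counting error, for counts less than 1.5 times, or for the median change in rank less than its SD over pairs (23.4), and 40 moved by more; the cause was not tested beyond what each alternative does by construction. With the 25000 strongest regions of each list, parent and ΔSRR2–18 receptor regions numbered 26 and 28, with 19 parent-only (73.1%) and 21 deletion-only (75%); 42.3% of parent regions were at promoters, 0% of parent-only regions had SOX and 52.4% of deletion-only regions had AP-1. At 50 kb the numbers were 68 and 90, with 30 (44.1%) and 52 private, and 35.3% and 32.2% at promoters. At 10 kb they were 41 and 47, with 13 (31.7%) and 19 (40.4%) private, 58.5% and 59.6% at promoters, and AP-1 in 21.1% of deletion-only regions. With TSSs of every biotype, 70 parent regions were assigned, 37 of them parent-only, 34.3% at promoters. Gene-body assignment gave 211 ΔSRR2–18 regions, 113 parent-only (71.5%) and 166 deletion-only (78.7%) regions, 8.86% and 9.48% at promoters, and AP-1 in 1.77% of parent-only regions. A 2.5-kb promoter took in 37.3% and 30.7%. A 50-bp motif window gave SOX in 2.22% and AP-1 in 28.9% of deletion-only regions. Shares over all regions were not recomputed under these alternatives, so the receptor shares cannot be placed near or far from them. The difference of deletion-only minus parent-only regions turned to -2 at *Grik3*, -2 at *Grik4* and 1 at *Grin3a* under gene-body assignment, and to -1 at *Grik4* and -1 at *Grm8* at 10 kb. Of the other single-gene differences, 36 moved by over 1.5 times or to 0, among them *Grm3* (from -5 to 0 at 50 kb, at 10 kb and with TSSs of every biotype) and *Grm4* (from -7 to -1, 0 and -1). The median change in rank, -1.9, was -9.44 with the shortened ΔSRR2–18 list and -24.9 with the 25000 strongest regions. Among the families, the difference kept its sign under each of the 11 alternative lists and assignments for kainate and GABA-A genes. The alternatives cut the same peaks again, and the whole lists also held more deletion-only regions. Gene-body assignment turned the difference for metabotropic (-9 to 13), NMDA (-3 to 8), delta (1 to -11) and GABA-B genes (3 to -1). The shortened list also turned it for delta genes (-3). It was 0 for AMPA genes with the 25000 strongest regions, for NMDA genes with the optimal lists and for GABA-B genes with the shortened list. For metabotropic genes it was 0 at 50 kb. For delta genes it was 0 with the optimal lists, at 50 kb, at 10 kb and with TSSs of every biotype. The lower depth of ΔSRR2–18 limits detection of weak regions there.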

Other observations

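Several receptor genes are much longer than 100 kb, and their introns held accessible regions beyond that distance from any protein-coding TSS. There were 69 such regions in the parent list, 57 of them parent-only, and 107 in the ΔSRR2–18 list, 94 of them deletion-only. Over all regions, 52.3% were parent-only and 63.1% deletion-only, and away from promoters 61.6% and 71.5%. Shares over other intronic regions this far from a TSS were not computed, so these are not like sets. *Grm8* had 1 parent and 21 ΔSRR2–18 regions of this kind, with fold enrichments up to 7.08 and 24.4. *Gabrg3* had 0 and 18, the strongest at 27.6, so that its whole gene body held 0 parent and 24 ΔSRR2–18 regions. *Grik2* had 0 and 8, and *Grm7* had 4 and 12. *Grid1* showed the opposite, with 12 parent regions, all parent-only and reaching a fold enrichment of 29.4, and 1 ΔSRR2–18 region. *Grm3* had 5 parent-only regions and 0 in ΔSRR2–18. *Grm5* had 11 and 9, with maxima of 32.5 and 25.8, close to the strongest receptor regions nearer to a TSS. *Grin2a*, which had no parent region within 100 kb, had 4 parent-only and 2 deletion-only regions beyond it.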
